A study of Mus musculus with 13 samples.

Results

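The ADAR family comprises Adar, Adarb1 and Adarb2, the mouse genes for the adenosine deaminases that act on RNA. The genes were taken by their Ensembl identifiers, which gave 3 of the 54307 entries of the gene table. Editing sites were taken where they lay inside these genes on the genes' own strand. They numbered 81 of the 64465 sites listed in the comparisons of genotypes, with 12 in Adar, 34 in Adarb1 and 35 in Adarb2. The rule rested on gene identity and position and used no measured value, but the members were chosen with earlier results of these data known.

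ADAR1, the product of Adar, and ADAR2, the product of Adarb1, convert adenosine to inosine in double-stranded RNA, and inosine is read as guanosine in sequencing. ADAR1 is made as a long form from an interferon-inducible promoter and as a shorter form from other starts, and only the long form carries the Z-nucleic acid binding domain. Its loss lets cellular double-stranded RNA activate the sensor MDA5 and the interferon response. ADAR2 is abundant in neurons and recodes glutamate receptor transcripts, and Adarb2 encodes ADAR3, a brain protein that binds double-stranded RNA and has no known editing activity.

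RNA was sequenced from snap-frozen whole brain of 13 mice on a C57BL/6 background, in 4 Adar genotypes. P195A/+ animals (n = 3, aged 43 days) carried a P195A allele beside a wild-type allele, and P195A/P195A animals (n = 4, aged 42, 42, 48 and 48 days) carried P195A on both chromosomes. P195A/- animals (n = 3, aged 42 days) carried P195A over a knockout allele according to the short genotype label. The long label of the same animals writes P195A on both sides and adds AdarKO/+, and the sources used here do not state which exons the knockout removes. Wild-type animals (n = 3, aged 48, 48 and 74 days) had no altered allele. Each group held 1 male, and the others were female. Gene counts per library summed to 13539148 to 22399005. All 5 neuronal, 5 oligodendrocyte and 5 astrocyte markers examined were detected, and the neuronal markers summed to 3216 to 3903 CPM (counts scaled to a library total of 1000000) over the 13 libraries. The labels give weaning age and weight but no parents or litters. All P195A/+ animals shared an age and a weaning age, as did all P195A/- animals, and no wild-type animal was of either age. The P195A/P195A animals of 42 days shared the weaning age of P195A/-. Those of 48 days shared that of the wild-type animals of 48 days. Every P195A/P195A and P195A/- animal weighed less at weaning than every P195A/+ and wild-type animal. Whether animals of a group were littermates was not tested. The p-values measure the spread between these animals and treat them as independent.

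Sequences that define the allele and the self-edited region are given first, on GRCm38. The proline codon that the P195A label names lies in an exon of chromosome 3, on the plus strand. The stretch at chr3:89735384-89735410 from the reference transcript Adar-203, with that codon in capitals, reads as follows.
Adar proline codon: agggggaaacctCCTttgtggagcctt
This codon is in the coding sequences of Adar-201 and Adar-203, whose first exons start at 89730748, and not in those of Adar-202, Adar-204 and Adar-205. The first exons of Adar-204 and Adar-205 also start at 89730748, and that of Adar-202 starts at 89715022. The RefSeq promoter table (GRCm38.p6, 250 bases before to 50 after a start) holds 3 starts of Adar. The letters GAAANNGAA, a core of interferon-stimulated response elements, were searched on both strands. They occurred at the start at 89730718, with 2 matches on the plus strand, and at none of the other starts of Adar, Adarb1 or Adarb2. Of 32851 promoters in the table, 2812 (8.56%) held a match. The match shown next lies inside the first exon that starts at 89730748, and downstream of the start at 89730718. The stretch is chr3:89730738-89730767 on the plus strand, with the motif in capitals.
Adar start: ttttcaaggaaacGAAAGTGAActctgggg
Adarb1 lies on the minus strand of chromosome 10, and the next 2 stretches are written along its RNA, with listed editing sites in capitals. The first, at chr10:77322601-77322630, opens the segment of 47 bases that is included when splicing uses the upstream of a pair of 3′ splice sites. The second, at chr10:77324068-77324097, is the densest stretch of sites in the intron before it.
Adarb1 inserted segment: gAtcctgcaAcgAAggcgttgtAAgttAct
Adarb1 intronic cluster: AAAggAgtAAcctAccggtcttttgctggA

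Adar RNA (ENSMUSG00000027951, chr3:89715022-89753446, plus strand) was highest in P195A/P195A brains and lowest in wild-type brains. By library it stood at 242, 245 and 232 CPM in P195A/+, at 346, 282, 340.3 and 322 CPM in P195A/P195A, at 196, 204 and 204 CPM in P195A/-, and at 187, 165 and 189 CPM in wild type. No genotype overlapped another. The means were 239.8 ± 6.63 CPM in P195A/+ (SD, n = 3), 323 ± 28.6 in P195A/P195A (n = 4), 201 ± 4.28 in P195A/- (n = 3) and 180.1 ± 13.3 in wild type (n = 3).

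Adar rose in P195A/P195A against wild type, by 0.84 on the log2 scale (SE 0.0775; edgeR quasi-likelihood, adjusted p = 5.91e-05), or 1.79-fold with a 95% interval of 1.61 to 1.99. It was among 9 genes that rose and 1 that fell of 19962 tested, 0.0501% of all genes (0.0451% higher), and its p was the third smallest. Adar passed in this comparison in all 18 alternatives run, with an adjusted p of up to 0.0390, which include animals of 48 days alone and age or sex as a term. Adar fell in P195A/- against P195A/P195A, by 0.68 on the log2 scale (SE 0.0772; adjusted p = 7.73e-04). Here 4 genes rose and 4 fell, 0.0401% of all genes, and Adar passed in all 17 alternatives. In P195A/+ against wild type the log2 fold change was 0.41 (SE 0.0814; adjusted p = 0.232), and 0.01% of genes passed, 0.00501% in each direction. In P195A/- against wild type it was 0.16 (SE 0.0815; adjusted p = 0.506), with 0.0351% passing, 0.0301% higher and 0.00501% lower. Complete separation of the libraries, as seen for Adar in every pair of genotypes, held for 6.48% of all genes in P195A/P195A and 20.1% in P195A/- against wild type, 11.9% in P195A/+ against wild type and 6.64% in P195A/- against P195A/P195A. It held for 5.32% in P195A/P195A and 18.1% in P195A/- against P195A/+. The P195A/+ value passed with DESeq2 (adjusted p = 0.00503) and in none of the other 14 alternatives.

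Between the mutant genotypes, Adar was higher in P195A/P195A than in P195A/+ by 0.43 on the log2 scale (SE 0.0766; adjusted p = 0.0861, with 0.02% of genes passing). This value passed with DESeq2 (adjusted p = 6.02e-04), with no filter on low counts (0.0453) and without P195A/P195A replicate 2 (0.0289), the library with the lowest Adar level of its group. P195A/- lay below P195A/+ by -0.25 (SE 0.0814; adjusted p = 0.256, with 0.0301% passing). The step that the second P195A allele added was set against the step of the first in 1 contrast. Their difference was 0.02 on the log2 scale (SE 0.138; 95% interval -0.25 to 0.29; adjusted p = 0.999), so steps that differ by up to that interval could not be told apart.

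**Figure D1:**
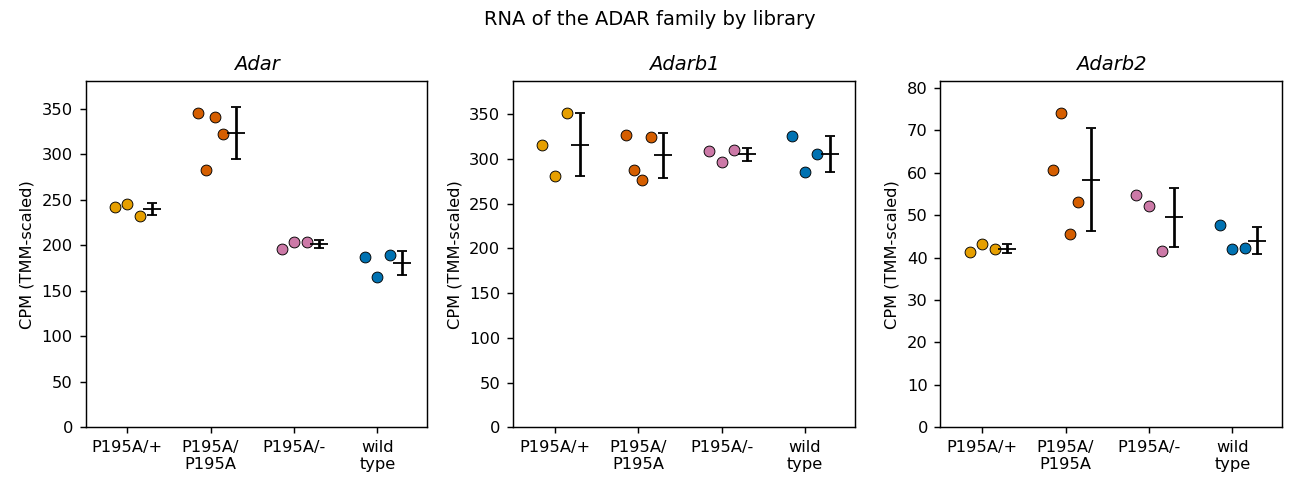
Points give CPM per library for Adar, Adarb1 and Adarb2 in P195A/+, P195A/P195A, P195A/- and wild-type brains, with the mean and SD beside them. Adar lies at 282 to 346 CPM in P195A/P195A and at 165 to 189 CPM in wild type, while the groups overlap for Adarb1.

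Genes beside Adar on its 3′ side rose with it. Within 250 kb, 10 other genes had a mean of at least 1 CPM. In P195A/P195A against wild type 6 of the 10 rose and none fell, their median log2 fold change was 0.87, and the median over all 19962 genes was 0.01. Chrnb2, a nicotinic acetylcholine receptor subunit gene that overlaps the 3′ end of Adar on the other strand, had 0.71 (SE 0.121; adjusted p = 0.0495). The noncoding gene 4632404H12Rik, 14065 bases away, had 0.84 (SE 0.111; adjusted p = 0.00367), and Ube2q1, a ubiquitin-conjugating enzyme gene 20170 bases away, had 1.00 (SE 0.125; adjusted p = 0.00216). All these lie on the side of Adar's 3′ end. On the other side Kcnn3, a potassium channel gene, had -0.06 and Pmvk, a mevalonate pathway enzyme gene, had -0.09.

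In P195A/- against wild type 3 of the 10 neighbours rose, with a median of 0.50, and in P195A/+ 1 rose, with a median of 0.55. Chrnb2 had 0.02 and 4632404H12Rik 0.31 in P195A/-, while Ube2q1 had 0.85 (adjusted p = 0.0269) there. In P195A/- against P195A/P195A, where Adar fell, none of the 10 passed and their median was -0.34. Of the 10 genes past the threshold in P195A/P195A, 7 were Adar or its neighbours within this window. Without wild-type replicate 1 or 3, 5 and 6 genes passed in P195A/P195A in place of 10, Adar among them. The deposited counts do not separate alleles, so the part of the linked region in Adar's own value was not tested. Near Adarb1 and Adarb2, 8 genes each were measured within 250 kb, and none passed in any of the 6 comparisons.

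**Figure D2:**
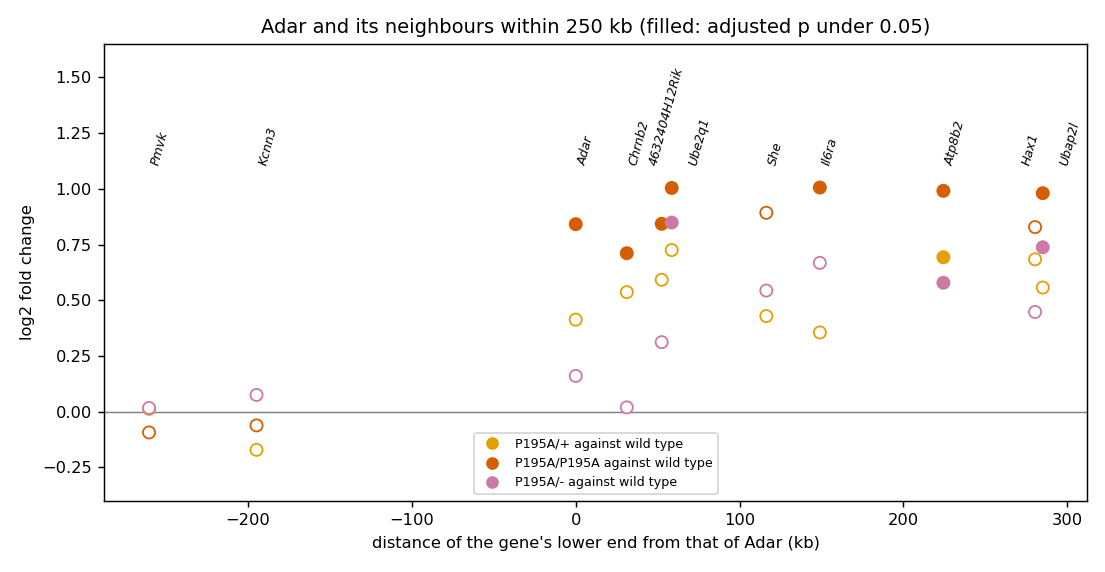
Log2 fold changes of Adar, at distance 0, and of the 10 measured genes within 250 kb are plotted against the distance of their lower ends from that of Adar in kb for each mutant genotype over wild type, filled where the adjusted p is under 0.05. Genes on the right reach up to 1.01 in P195A/P195A, and the pair on the left, Pmvk and Kcnn3, lies near 0.

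Adarb1 RNA (ENSMUSG00000020262, chr10:77290726-77418270, minus strand) had similar means in all genotypes. It stood at 316, 280.5 and 352 CPM in P195A/+, at 327, 288, 277 and 324 CPM in P195A/P195A, at 308.8, 296.6 and 309.4 CPM in P195A/-, and at 325, 286 and 305 CPM in wild type. The groups overlapped throughout. The log2 fold changes against wild type were 0.05 (SE 0.0896) in P195A/+, -0.01 (SE 0.0839) in P195A/P195A and -0.0026 (SE 0.0897) in P195A/-, with adjusted p of 0.992 or more. For P195A/P195A the 95% interval of the fold was 0.887 to 1.11. In the other 3 comparisons the values ran between -0.06 and 0.01.

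Divided by the union of their exons, the levels of the 3 genes can be set side by side. In P195A/P195A Adar was highest, at 39.7 ± 3.52 CPM per kb (SD, n = 4), followed by Adarb1 at 27.0 ± 2.25 and Adarb2 at 4.45 ± 0.931. In wild type Adarb1 was highest, at 27.1 ± 1.76 CPM per kb (n = 3), followed by Adar at 22.2 ± 1.64 and Adarb2 at 3.35 ± 0.243. The ratio of Adar to Adarb1 per length was 1.06 ± 0.148 in P195A/+, 1.48 ± 0.159 in P195A/P195A, 0.917 ± 0.0356 in P195A/- and 0.819 ± 0.0344 in wild type. In P195A/+ the libraries ran from 0.917 to 1.21, so Adar and Adarb1 did not differ beyond their spread there. With the longest transcript as length the ratios were 0.865, 1.202, 0.745 and 0.665 in the same order, which puts Adar below Adarb1 in P195A/+ and above it in P195A/P195A. In bulk tissue fewer cells of a type and less RNA per cell cannot be told apart.

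Adarb2 RNA (ENSMUSG00000052551, chr13:8202866-8768747, plus strand) was the least abundant of the family and spread most in P195A/P195A. It stood at 41.2, 43.2 and 41.9 CPM in P195A/+, at 60.7, 74.1, 45.5 and 53.1 CPM in P195A/P195A, at 54.8, 52.1 and 41.6 CPM in P195A/-, and at 47.6, 42.0 and 42.2 CPM in wild type. The coefficient of variation was 20.9% in P195A/P195A and 7.25% in wild type. The log2 fold change of P195A/P195A was 0.41 over wild type (SE 0.139; adjusted p = 0.829 by edgeR) and 0.47 over P195A/+ (SE 0.139; adjusted p = 0.684). In the other 4 comparisons the values ran between -0.24 and 0.23, and none passed. The spread in P195A/P195A included replicate 3, whose 45.5 CPM lay below the highest wild-type library.

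**Figure D3:**
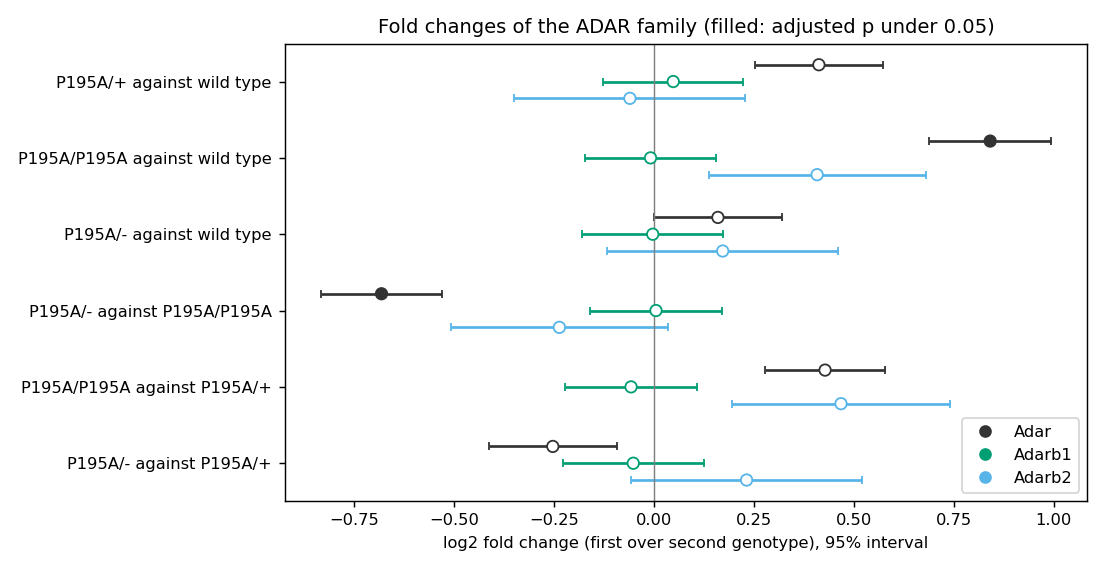
Log2 fold changes of Adar, Adarb1 and Adarb2 with 95% intervals are plotted for 6 pairs of genotypes, the first named over the second, filled where the adjusted p is under 0.05. Adar is filled in P195A/P195A against wild type (0.84) and in P195A/- against P195A/P195A (-0.68), and no point of Adarb1 or Adarb2 is filled.

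Of 13 markers of the olfactory bulb, a region that whole-brain dissections can hold in varying amounts, 2 passed between mutant genotypes. All 13 were detected, and 10 were above 0 in P195A/P195A against wild type (median 0.47, none passed) and 10 were above 0 in P195A/P195A against P195A/+ (median 1.04, 2 rose). The 2 were Cdhr1, a photoreceptor and mitral cell cadherin gene, at 22.3 ± 2.39 CPM in P195A/P195A against 5.10 ± 1.12 in P195A/+ (log2 fold change 2.13, adjusted p = 0.0425), and Doc2g at 2.07 (adjusted p = 0.0425). The list had 11 of 13 below 0 in P195A/- against P195A/P195A (median -0.64), where Cdhr1 fell, with 5.91 ± 3.64 CPM in P195A/- against 22.3 ± 2.39 in P195A/P195A (log2 fold change -1.92, adjusted p = 0.0253). Against wild type 12 of 13 were below 0 in P195A/+ (median -0.47) and 11 of 13 in P195A/- (median -0.46), and none passed. No gene passed in P195A/P195A against P195A/+ when any of the 3 P195A/+ libraries, or P195A/P195A replicate 1 or 4, was left out. The summed level of the list was 434 to 552 CPM in P195A/+, 516 to 588 in P195A/P195A, 393 to 527 in P195A/- and 517 to 556 in wild type. Adarb2 also marks interneurons that arise in the caudal ganglionic eminence. Of 10 markers of these cells, all detected, 7 were below 0 in P195A/P195A against wild type (median -0.07) and none passed. Their sums ran from 856 to 1100 CPM in P195A/+, 897 to 970 in P195A/P195A, 773 to 1019 in P195A/- and 1005 to 1067 in wild type. The part of either cell population in the Adarb2 values was not tested.

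The genes whose log2 CPM followed each member most closely over the 13 libraries were taken from 12872 genes of at least 5 CPM. For Adar, 4 of the 5 highest were its neighbours on chromosome 3, led by 4632404H12Rik (Pearson r = 0.93) and Chrnb2 (0.89), with Atp8b2, She and the distant Armc2 at 0.86 to 0.88. After genotype means were subtracted the first 2 had r of 0.52 and 0.71, Atp8b2 had 0.21, She had 0.89 and Armc2 had 0.88. For Adarb1 the 5 highest were Rimkla, Zic4, Ret, AW554918 and Rab37, with r of 0.81 to 0.87, and 0.87 to 0.92 within genotypes. For Adarb2 they were 5 predicted genes with r of 0.91 to 0.92, led by Gm48261, which lies inside Adarb2 on the same strand. Reads of Gm48261 and of Adarb2 introns cannot be told apart with certainty. Among the members, r was 0.01 between Adar and Adarb1, 0.45 between Adar and Adarb2 and -0.06 between Adarb1 and Adarb2, over libraries that share genotype and preparation. After genotype means were subtracted these were 0.19, -0.49 and 0.09 in the same order, so the sign for Adar and Adarb2 turned.

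Genes that work with the ADAR enzymes were examined as lists, and no member of them passed in any of the 6 comparisons. Of 21 regulators and partners, among them the import factor Tnpo1, the ubiquitin ligase Wwp2 and the fragile X proteins, 20 were measured. In P195A/P195A against wild type 12 were above 0 (median 0.04), with Fxr1, a fragile X related gene, lowest in p at 0.32 (adjusted p = 0.829). In P195A/- against wild type 8 of 20 were above 0 (median -0.03), and Fxr2 had 0.30 (adjusted p = 0.269). Of 14 other double-stranded RNA binding proteins and inosine readers, all measured, the median was -0.03 in P195A/P195A and 0.04 in P195A/- against wild type. Adenosine deaminases of tRNA and ADAR-like genes had 3 of 5 measured, with medians of 0.17 and -0.01 in the same 2 comparisons. Cytidine deaminases and their cofactors had 3 of 7 measured, with medians of 0.21 and 0.15.

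Interferon-stimulated genes lay on the other side of 0 from Adar between P195A/- and P195A/P195A, sensors of double-stranded RNA lay on both sides, and none passed. Of 24 interferon-stimulated genes, 23 were measured and all 23 were above 0 in P195A/- against P195A/P195A, with a median of 0.59 against 0.0037 over all genes. Ifit1, an antiviral RNA binding protein gene, had 5.60 ± 1.06 CPM in P195A/- and 2.09 ± 0.533 in P195A/P195A (log2 fold change 1.42, SE 0.275; adjusted p = 0.106). Against wild type the P195A/- median was 0.38, that of P195A/P195A was -0.23 and that of P195A/+ was -0.26. Of 17 sensors of double-stranded and Z-form RNA, 14 were measured. Of these, 10 were above 0 and 4 below in P195A/- against P195A/P195A, with a median of 0.27. Against wild type the P195A/- median was 0.40, beside 0.03 for P195A/P195A and -0.06 for P195A/+. Dhx58, which encodes the sensor LGP2, had 1.64 ± 0.362 CPM in P195A/P195A and 0.581 ± 0.209 in wild type (log2 fold change 1.49, SE 0.366; adjusted p = 0.694). These comparisons share their wild-type or P195A/P195A animals.

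Editing was read as the share of G among A plus G reads at each listed site, on the strand of the transcript. With at least 10 such reads in each library of a comparison and a pooled level of 1 to 99%, 29 family sites could be tested in P195A/+ against wild type, 29 in P195A/P195A, 28 in P195A/- and 28 in P195A/- against P195A/P195A. None passed in any comparison by edgeR's quasi-likelihood test, and the counts at an unadjusted p under 0.05 were 3, 1, 2 and 2 in that order, where 6.06%, 7.99%, 4.01% and 7.25% of all sites met that level. Over all sites 0.0143%, 0.208%, 0.00% and 0.0846% passed. The median log2 odds ratio of the family's sites against wild type was 0.29 for P195A/+, -0.0041 for P195A/P195A and 0.22 for P195A/-, beside 0.21, 0.16 and 0.07 over all sites. In P195A/- against P195A/P195A it was 0.27, beside -0.09. Median depth was 26 reads at the Adar sites, 33 at the Adarb1 sites and 6 at the Adarb2 sites, so a single site could show only large differences.

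Of the 34 Adarb1 sites, 10 lay in or just before the inserted segment. ADAR2 is known to edit its own transcript at the A that ends the intron before the inserted segment, which creates a usable splice site. The segment is 47 bases long, not a multiple of 3, and its inclusion shifts the reading frame. In GENCODE M21, 3 transcripts include it and 5 start the exon at the downstream site. The A that ends the intron, at position 77322631 and called -1 here, was edited in 28.2% of 528 reads. By library the levels were 32.4, 29.6 and 27.3% for the P195A/+ brains, 21.8, 24.2, 35.3 and 33.3% for P195A/P195A, 25.0, 35.1 and 33.3% in P195A/-, and 30.8, 23.1 and 17.5% in wild type, on 27 to 55 reads each.

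All 4 genotypes overlapped at the -1 site. The means were 29.8 ± 2.58% in P195A/+ (SD, n = 3), 28.7 ± 6.64% in P195A/P195A (n = 4), 31.2 ± 5.41% in P195A/- (n = 3) and 23.8 ± 6.66% in wild type (n = 3). The log2 odds ratio against wild type was 0.44 (SE 0.554) in P195A/+, 0.36 (SE 0.487) in P195A/P195A and 0.57 (SE 0.542) in P195A/-, with adjusted p of 0.919 or more by edgeR. It was 0.22 (SE 0.487; adjusted p = 0.965) in P195A/- against P195A/P195A. Spliced reads that lack the intron carry no base at this position, so the level describes RNA that still holds the intron.

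Inside the inserted segment 7 of its 11 adenosines were listed sites, counted from +1 at its first base. The +24 site was edited most, in 77.4% of reads, with 81.2 ± 4.93% in P195A/+, 79.9 ± 11.5% in P195A/P195A, 73.0 ± 4.93% in P195A/- and 76.2 ± 6.23% in wild type. The adjoining +23 site reached 33.2%, the +10 site 45.2% and the +28 site 13.5%. Another adjoining pair, +13 and +14, stood at 1.42% and 0.968%. Upstream in the intron the -28 site had 11.7 ± 6.91% in P195A/+, 3.95 ± 2.83% in P195A/P195A, 15.02 ± 9.78% in P195A/- and 4.85 ± 4.48% in wild type. It was chosen after its values were seen, as the family site of lowest p in P195A/- against P195A/P195A (log2 odds ratio 1.91, SE 0.733; adjusted p = 0.535 by edgeR).

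**Figure D4:**
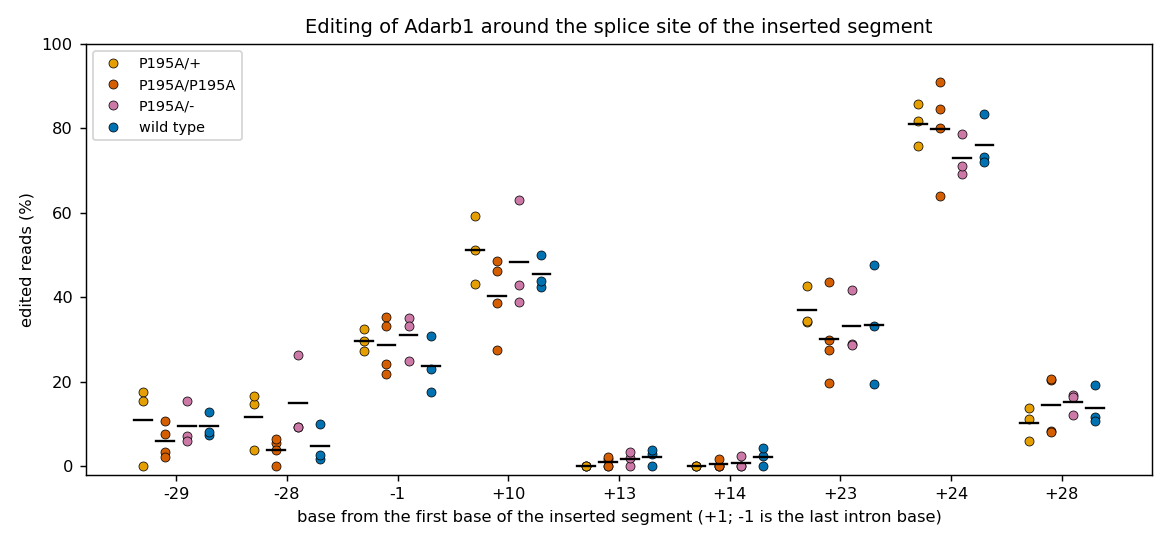
Points give the percentage of edited reads per library at 9 tested Adarb1 sites, placed by their offset in bases from the inserted segment, with a bar at each genotype's mean. Levels differ widely between sites: +24 lies between 63.9 and 90.9%, +13 and +14 lie below 5%, and the 4 genotypes overlap at -1.

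A second group of 15 Adarb1 sites lay 1334 to 1467 bases upstream, at chr10:77323964-77324097, in the intron of the coding transcripts and inside the noncoding transcript Adarb1-209. It held the most edited site of Adarb1, 77324060, at 85.1% of 469 reads. By genotype that site had 85.2 ± 7.32% in P195A/+, 82.5 ± 2.07% in P195A/P195A, 85.8 ± 15.2% in P195A/- and 90.0 ± 2.30% in wild type. Within the stretch printed above, 77324084 reached 65.5%, 77324089 reached 42.0%, 77324088 30.7% and 77324068 29.6%. The other 9 sites of Adarb1 comprised 1 coding site beyond the segment and 8 sites elsewhere in introns. For 23 sites of the family that lie in a transcript, the base before the edited A could be read. The pooled level had a median of 37.6% over 6 sites after T, 12.6% over 9 sites after A and 0.478% over 7 sites after G, with a single site after C at 0.299%. The highest site after G was at 29.6%.

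Over the 16 Adarb1 sites with 10 reads in all 13 libraries the mean level was 34.6 ± 1.73% in P195A/+, 30.7 ± 1.87% in P195A/P195A, 31.3 ± 2.43% in P195A/- and 32.1 ± 2.41% in wild type. The 9722 sites of all genes held to the same rule averaged 17.4 ± 0.367%, 16.9 ± 0.239%, 16.1 ± 0.499% and 15.6 ± 0.636% in the same order of genotypes.

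All 12 sites in Adar lay in introns. Of these, 10 lay in the 15696 bases between the upstream start at 89715022 and the start at 89730718, and 89741000 and 89744048 lay further on. Pooled levels ran from 2.02 to 47.6%. The most edited, 89722645, had 53.5 ± 5.13% in P195A/+, 38.9 ± 5.94% in P195A/P195A, 56.7 ± 4.50% in P195A/- and 48.6 ± 2.60% in wild type. P195A/P195A was the lowest genotype at this site, and no comparison passed. At its neighbour 89722623 the levels were 32.5 ± 0.779%, 19.8 ± 2.70%, 29.7 ± 10.6% and 21.6 ± 15.9% in the same order. At 89720473, named after its values were seen as the Adar site of lowest p in P195A/+ against wild type, the levels were 35.0, 41.2 and 37.5% in P195A/+, on 20 to 34 reads, and 21.9, 8.33 and 12.5% in wild type, on 12 to 32 reads. Of the 29 family sites tested in that comparison, this was the 1 whose groups did not overlap. Complete separation of 3 against 3 has an exact permutation p of 0.1, the smallest allowed, so separation alone does not single this site out. How often it occurs over all sites was not tested. At 89720473 the means of 37.9 ± 3.11% in P195A/+ and 14.2 ± 6.94% in wild type differed by 23.7 points. This was the most of the 10 Adar sites tested there (log2 odds ratio 1.64, SE 0.728, adjusted p = 0.797 by edgeR). The same site had 31.6 ± 13.5% in P195A/P195A and 22.9 ± 11.7% in P195A/-, and both overlapped wild type. The lowest p in P195A/- against wild type belonged to 89720452, chosen after its values were seen (adjusted p = 0.9996 by edgeR). It had 9.09, 22.6 and 0.00% in P195A/- (10.6 ± 11.4%) and 0.00% in each wild-type library, so the groups overlapped. Of the 10 edited reads in P195A/-, 7 came from replicate 2.

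Over the 10 Adar sites read at least 10 times in all libraries, 89720473 among them, the mean level was 19.9 ± 0.664% in P195A/+, 16.0 ± 2.47% in P195A/P195A, 19.4 ± 3.74% in P195A/- and 14.3 ± 0.263% in wild type. The 3 wild-type libraries, at 14.1 to 14.6%, lay below all P195A/+ and P195A/- libraries and overlapped those of P195A/P195A, at 12.9 to 19.0%. Separation from P195A/+ was not particular to Adar. Over the 9722 sites of all genes, wild type (15.1 to 16.3%) also lay below P195A/+ (17.0 to 17.7%). There it lay below P195A/P195A as well (16.6 to 17.1%) and overlapped P195A/- (15.7 to 16.7%). By gene, 8 of 10 Adar sites had a log2 odds ratio above 0 in P195A/+ against wild type, 6 of 10 in P195A/P195A and 9 of 10 in P195A/-. The median over all tested sites was also above 0 there, at 0.21, 0.16 and 0.07 in the same order. Adjacent sites share reads, so the counts of Adar sites are not independent.

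Read depth at the same intronic positions gives a second, partial view of Adar RNA, one that draws on unspliced transcripts. Transcripts with a first exon at 89730748 do not hold the 10 sites before the start at 89730718. Most of the sites thus read only RNA begun upstream, and the measure does not cover Adar RNA as a whole. Reads at the 12 sites were scaled to 1000000 reads at the 39309 sites listed in all 3 comparisons with wild type. They stood at 319, 382 and 382 in P195A/+, at 529.9, 440.3, 384 and 598 in P195A/P195A, at 356, 417 and 369 in P195A/-, and at 364, 226 and 262 in wild type. P195A/P195A lay above every wild-type library, at 1.72 times the mean (exact two-sided permutation p = 0.0571, the smallest that 4 against 3 allows; adjusted p = 0.343 over 18 tests of 3 genes in 6 comparisons). P195A/- over P195A/P195A was 0.780 (exact permutation p = 0.114) and the groups overlapped. At the 25 Adarb1 sites the ratio of P195A/P195A to wild type was 1.01 (exact permutation p = 0.971). At 9 Adarb2 sites that ratio was 1.23 with overlap (exact permutation p = 0.343). Against P195A/+, Adarb2 reads had ratios of 1.64 in P195A/P195A (exact permutation p = 0.0571) and 1.57 in P195A/- (0.1), both without overlap. For P195A/+ over wild type the Adarb2 ratio was 0.754, also without overlap (exact permutation p = 0.1). Each of these Adarb2 separations had an adjusted p of 0.343 over the same 18 tests. The read-depth measure was chosen after the data were seen. Each library contributed only 176 to 480 reads at the Adar sites and 47 to 126 at the Adarb2 sites.

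**Figure D5:**
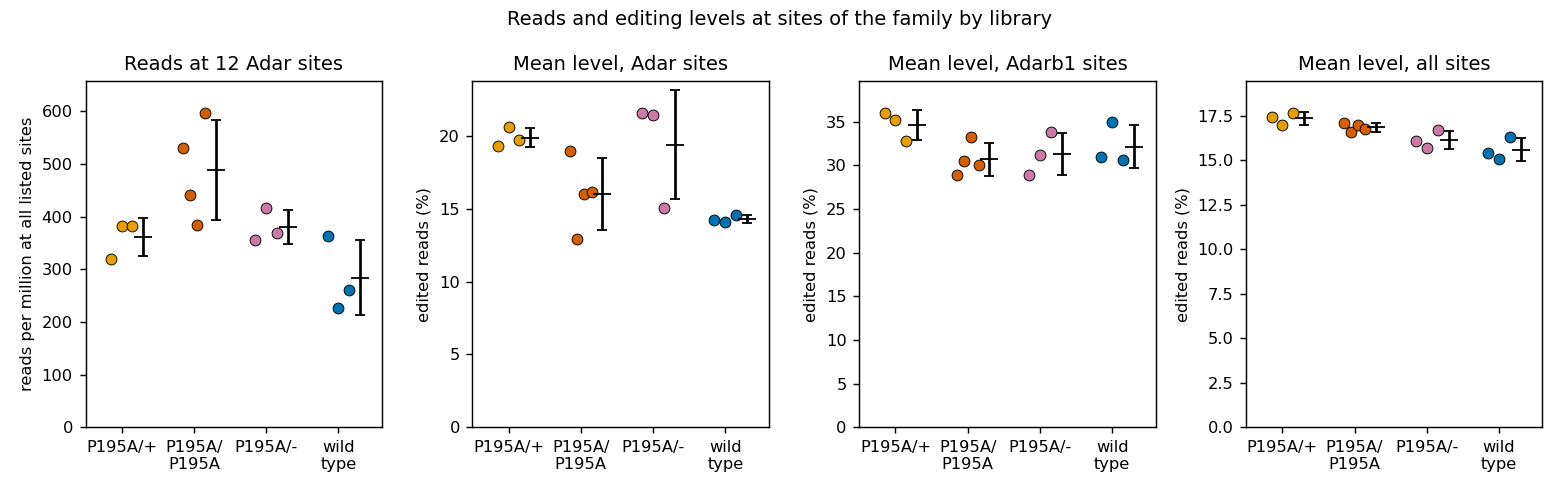
From left to right, points per library give reads at the 12 Adar sites, scaled to 1000000 reads at the listed sites, then the mean percentage of edited reads over 10 Adar sites, 16 Adarb1 sites and 9722 sites of all genes, with the mean and SD beside them. Reads at Adar sites are highest in P195A/P195A (384 to 598, against 226 to 364 in wild type), and the mean level at Adar sites is lowest in wild type.

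Adarb2 held 35 listed sites, all intronic, and 0 of them met the coverage minimum in any comparison. Their pooled levels had a median of 20.9% and ran from 2.41 to 81.7%, on a median of 6 reads per library. Editing levels could not be compared between genotypes at this depth.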

How the data were processed

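The authors deposited a table of expected counts per gene, which need not be whole numbers. The submitters' processing notes name the tools fastp 0.19.5, Salmon and edgeR and the build mm10, without roles or order; other versions, the index and the way transcripts were summed were not stated. Of 54307 entries, 51482 matched GENCODE M21 (GRCm38) by gene ID, which gave names and coordinates. The authors also deposited read counts per base at listed editing sites from JACUSA2 2.0.0-RC5 per the file headers, which state a minimum coverage of 3, a depth cap of 3000 and that duplicates were left out. No aligner is named there. The score column of the deposited tables was not used. Tables of single libraries list a site only where a change was seen and were not used for levels.

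After rounding, the 13 libraries entered a single robust quasi-likelihood fit in edgeR 4.0.16 (R 4.3.3; filterByExpr, then TMM), with a biological coefficient of variation of 19.1%. The threshold was a p under 0.05 after Benjamini-Hochberg adjustment over 19962 genes. log2 CPM used a prior count of 2. Intervals of folds are 1.96 SE to each side. Editing was tested per comparison with edgeR on edited and unedited reads. Exact permutation tests doubled the smaller tail (Python 3.11.15, numpy 2.4.6, pandas 2.3.3, matplotlib 3.10.9). The fits were also run on simulated data, but no outcome is given here, so that run is no measure of their accuracy. Promoter sequences are RefSeq's (GRCm38.p6) and others those of GENCODE M21 transcripts; intronic sequence outside transcripts was not used here.

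The members and gene lists were chosen with earlier results of these data known. The text names the 3 members; for each, the 5 genes of at least 5 CPM with the highest correlation and the nearest genes within 250 kb of at least 1 CPM; list members of lowest p; and, of the tested sites, those that passed, the 5 most-read per gene and Adarb1 sites at 10% or more. Alternatives were DESeq2 1.42.0, limma-voom (limma 3.58.1), other scalings, no filter, 2 genotypes alone, sex, age or replicate number as a term, coverage minimums of 5 and 20 and leaving out each library.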

Additional observations from a re-analysis of the deposited data

Results flagged for a closer look

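In the P195A/P195A group, the only group with the 4 animals such a check needs, 29 measures of the family were examined for a library that stood apart from the others. At the Adarb1 site 77322617, the +14 position of the inserted segment, replicate 4 had 1.85% edited reads and the other 3 libraries had 0.00%. That value is 1 edited read of 54, and chance alone marks about 1 in 20 groups in this way.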

How the results depend on the processing

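Adar passed in P195A/P195A against wild type in all 18 alternatives and in P195A/- against P195A/P195A in all 17. Adar also passed in P195A/+ against wild type with DESeq2 (0.41), and in P195A/P195A against P195A/+ with DESeq2 (0.43), with no filter (0.41) and in 1 of the fits that left out a library, which ran from 0.40 to 0.49. The contrast of the second and first P195A allele turned its sign with no filter (-0.0034) and an age term (-0.058), and ran from -0.032 to 0.069 with a library left out. Adarb1, near 0 throughout, turned its sign in P195A/P195A against wild type with library totals (0.0099), the 2 genotypes alone (0.0035) and without replicates 2 and 3 (0.084), the last also in P195A/- against P195A/P195A (-0.090) and in P195A/P195A against P195A/+ (0.035). In P195A/- against wild type it did so with upper quartile scaling (0.0051), library totals (0.026) and limma-voom (4.96e-05). With a library left out, Adarb1 against wild type ran from -0.036 to 0.13 (P195A/+), from -0.042 to 0.035 (P195A/P195A) and from -0.046 to 0.037 (P195A/-). It ran from -0.037 to 0.038 in P195A/- against P195A/P195A, -0.14 to 0.023 in P195A/P195A against P195A/+ and -0.14 to 0.029 in P195A/- against P195A/+. No alternative turned the sign of Adarb2 or made it pass. The cause of these changes was not tested.

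Counts of genes past the threshold moved more. In the order P195A/+ against wild type, P195A/P195A against wild type, P195A/- against wild type, P195A/- against P195A/P195A, P195A/P195A against P195A/+ and P195A/- against P195A/+, they were 2, 10, 7, 8, 4 and 6 as reported and 19, 18, 164, 51, 30 and 272 with DESeq2. With no filter they were 7, 12, 16, 29, 15 and 49, with the 2 genotypes alone 11, 5, 16, 5, 1 and 4, and with an age term 2, 5, 1, 4, 0 and 2. Animals of 48 days alone gave 5 in P195A/P195A against wild type. In P195A/P195A against P195A/+ the count was 0 with library totals, with a sex term, with an age term and without replicates 2 and 3, and 2 with limma-voom; at an unadjusted p under 0.05 these fits by edgeR held 1203, 1083, 1195 and 1918 genes. With a library left out the counts ran from 1 to 2, 5 to 13, 2 to 6, 5 to 15, 0 to 11 and 3 to 8. They moved by over 1.5 times without wild-type replicate 2 in the first; wild-type 1 and 3 in the second; each wild-type library and P195A/- 2 in the third; P195A/P195A 1, 2 and 4 in the fourth; each P195A/+ library and P195A/P195A 1, 3 and 4 in the fifth; and P195A/- 3 in the sixth. Whether replicate numbers pair the animals was not settled. Of 18 same-numbered pairs, 4 had a correlation of their deviations over 0.1 (-0.074 to 0.23), and other pairs ran from -0.26 to 0.16. Of 12 libraries, 8 correlated best with their own number. With the replicate number as a block the count in P195A/P195A against P195A/+ was 2, and no call of a family member changed. Adar over Adarb1 per length was 0.865 in P195A/+, 1.202 in P195A/P195A, 0.745 in P195A/- and 0.665 in wild type with the longest transcript. No family editing site passed under any alternative. Depth limits single sites to large differences.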
